A study of Homo sapiens with 7 samples.

Results

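The nuclear-encoded respiratory chain genes were taken as the protein-coding GENCODE genes on chromosomes 1 to 22 and X whose symbols begin with NDUFA, NDUFB, NDUFC, NDUFS or NDUFV and a digit, with UQCR, with COX4 to COX8 or with ATP5, together with SDHA, SDHB, SDHC and SDHD. The rule found 89 of 19970 protein-coding genes, of which 87 encode subunits or isoforms of complexes I to V and 2, ATP5MF-PTCD1 and NDUFC2-KCTD14, are readthrough genes that join a subunit gene to its neighbour. Each gene was scored by whether a peak of Rb CUT&RUN, an assay in which an antibody-directed nuclease releases the DNA around a bound protein, overlapped the promoter window, which runs from 2000 bp before to 500 bp after any of its transcription start sites (TSSs).

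Complexes I to IV pass electrons from NADH and succinate to oxygen and pump protons across the inner mitochondrial membrane, and complex V, the ATP synthase, uses the proton gradient to make ATP. Most subunits are encoded in the nucleus and the rest by mitochondrial DNA, from which reads were removed before peak calling. Promoters of the nuclear genes are known for binding sites of NRF1, of ETS factors such as GABP, and of YY1, CREB and oestrogen-related receptors. Rb, the retinoblastoma protein, binds E2F transcription factors at cell cycle promoters when it is hypophosphorylated, and palbociclib, an inhibitor of the kinases CDK4 and CDK6, keeps it in that form.

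All 7 libraries were made from the ZR-75-1 line, a model of oestrogen receptor-positive breast cancer. Its parental cells were given DMSO (2 Rb libraries) or 500 nM palbociclib (2 Rb libraries) for 4 days, and RB1 knockout (RB1 KO) cells were given DMSO (1 Rb library) or the same dose of palbociclib (1 Rb library). The RB1 KO cells were made with CRISPR and expanded from single sorted cells, and the number of clones behind these libraries is not given in the sources used here. A library with a non-targeting IgG2a antibody came from palbociclib-treated parental cells. The lists held 996 and 816 peaks with DMSO, 8399 and 8256 with palbociclib, 65 and 51 in the RB1 KO libraries, and 2648 with IgG2a. Of the RB1 KO peaks, 4 with DMSO and 5 with palbociclib lay on chromosomes 1 to 22 and X. The lists carry no read totals. The lowest local background of any peak, which scales with depth, ranged from 0.465 to 0.571 fragments over the parental Rb lists. Peak lists hold no transcript levels, so the identity of the cells could not be checked against marker genes.

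Rb peaks lay at the promoters of few respiratory chain genes with DMSO and of many with palbociclib, and the same held for other genes. Of the 19881 other protein-coding genes, 1019 and 838 had a promoter peak in the DMSO libraries and 7725 and 7595 in the palbociclib libraries. Of the 89 genes, 3 had a promoter peak in DMSO replicate 1, 5 in DMSO replicate 2, 39 in palbociclib replicate 1 and 40 in palbociclib replicate 2. The groups did not overlap, with means of 4.0 ± 1.41 genes with DMSO and 39.5 ± 0.707 genes with palbociclib (SD, n = 2 per group), a difference of 35.5 genes. An exact permutation test over the libraries, two-sided, gave p = 0.333, which is the smallest value that the 6 splits of 2 against 2 libraries allow, and Benjamini-Hochberg adjustment over the 4 comparisons computed left it at 0.333. When every parental Rb library contributed no more than its 816 peaks of highest −log10 q, the genes numbered 3 and 5 with DMSO and 4 and 4 with palbociclib, and the difference was 0. Lists of equal length bring the totals close together by construction, with 4.24 and 4.22% of other genes called with DMSO and 4.51 and 4.63% with palbociclib, so this setting describes only which genes were among the strongest peaks. The genes in the shortened palbociclib lists were ATP5F1A, ATP5MC1, NDUFA6 and NDUFS8 in each replicate.

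The share of respiratory chain genes called in both libraries of a treatment differed from that of other genes by less than its counting interval. A promoter peak was called in both palbociclib libraries at 30 of 89 genes (33.7%, 95% exact binomial interval 24.0 to 44.5%), beside 34.2% of the 19881 other protein-coding genes, and in both DMSO libraries at 3 of 89 (3.37%, interval 0.701 to 9.54%), beside 2.86% of the others. These intervals cover counting error only. Gained genes, called in both palbociclib libraries and in neither DMSO library, numbered 25 (28.1%, interval 19.1 to 38.6%), beside 27.8% of other genes. A further 19 genes (21.3%, interval 13.4 to 31.3%) were called in 1 palbociclib library only, 9 in replicate 1 and 10 in replicate 2, with fold enrichments between 3.33 and 6.91, beside 8.63% of other genes. The remaining 40 genes (44.9%, interval 34.4 to 55.9%) had no peak in any parental Rb list, beside 57.1% of other genes, which lies outside the interval. No test of these differences was made. Counted in each library on its own, the share of respiratory chain genes stood 4.96 and 6.74 percentage points above that of other genes with palbociclib, and 1.75 points below and 1.40 points above it with DMSO.

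No respiratory chain gene had a promoter peak in either RB1 KO library (upper limit of the exact interval 4.06%), and 2 of the 19881 other genes did. In the IgG2a library 1 of 89 had a peak (1.12%), beside 1.74% of other genes. It was NDUFV1, which encodes the NADH-binding flavoprotein of complex I.

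**Figure D1:**
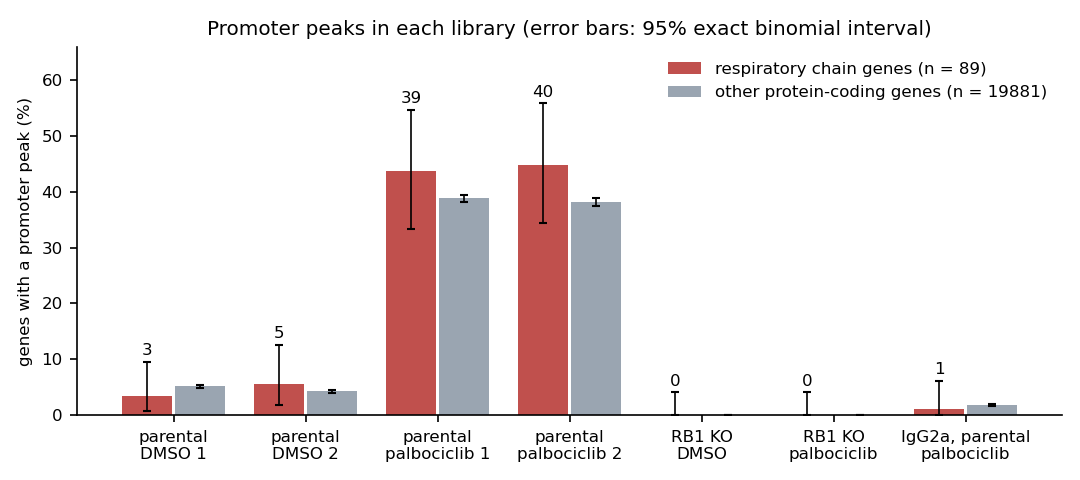
Share of genes with a promoter peak (%, y axis) in each of the 7 libraries (x axis), for the 89 respiratory chain genes and the 19881 other protein-coding genes, with 95% exact binomial intervals and the number of respiratory chain genes above each bar. The share of respiratory chain genes is 3.37% and 5.62% in the DMSO libraries, 43.8% and 44.9% in the palbociclib libraries and 0% in the RB1 KO libraries, and other genes stand at similar heights.

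Peaks in all 4 parental lists were found at ATP5F1A, NDUFS8 and NDUFA6. The reference sequence (GRCh38) is shown around a motif match within 100 bp of each palbociclib summit. These genes were chosen because their promoters had an Rb peak in both untreated libraries. The stretches of NDUFS8 and NDUFA6 lie outside the peak of DMSO replicate 1 and inside that of DMSO replicate 2. Each sequence is written 5′ to 3′ on the strand of the gene, with the motif named for each in capitals, and cut where annotated exons begin.

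ATP5F1A, SP/KLF, chr18:46104442-46104493, minus strand: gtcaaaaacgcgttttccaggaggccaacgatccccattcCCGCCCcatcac
NDUFS8, NFY, chr11:68030505-68030589, plus strand: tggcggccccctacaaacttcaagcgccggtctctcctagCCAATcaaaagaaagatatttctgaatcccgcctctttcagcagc
NDUFA6, NFY, chr22:42090885-42090930, minus strand: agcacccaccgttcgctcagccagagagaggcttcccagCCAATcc

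ATP5F1A, the catalytic-head α subunit of ATP synthase, carried the highest fold enrichment of the group. Fold enrichment, which the authors deposited as fragments piled up at the summit over the background expected there, was 11.5 and 12.0 in the DMSO libraries and 47.7 and 39.2 in the palbociclib libraries. Both palbociclib values lay above both DMSO values, with a ratio of means of 3.70. In the palbociclib lists only 0.565% and 0.93% of peaks had a higher value, and 1.03% of the other called genes had a higher mean. The peak of palbociclib replicate 1 spanned chr18:46104147-46104888 and was shared with the divergent gene HAUS1, which encodes a subunit of the augmin complex of the mitotic spindle. The TSSs of the pair lie 44 bp apart, and the summit lay 96 bp from a TSS of HAUS1 and 164 bp upstream of the nearest TSS of ATP5F1A, whose canonical TSS is 6202 bp further into the gene from that summit. When only canonical TSSs were counted, ATP5F1A lost its call in replicate 1 of each treatment and was no longer called in both libraries of either.

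NDUFS8, an iron–sulphur subunit of the core of complex I, had fold enrichments of 4.29 and 5.83 with DMSO, compared with 22.0 and 17.6 after palbociclib. These groups did not overlap, and the ratio of means was 3.91. Its palbociclib pileups of 91 and 99 fragments were the deepest of any called respiratory chain gene in their libraries, over local backgrounds of 3.18 and 4.69 fragments. The gene lies on chromosome 11, and the 38 and 39 palbociclib peaks between 67 and 71 Mb there had median backgrounds of 4.36 and 4.69, compared with 1.45 and 1.56 over all palbociclib peaks. The part of the raised background in these values was not tested. The summit, within chr11:68030187-68031009 in palbociclib replicate 1, had a CCAAT box 5 bp downstream of it and no protein-coding gene on the opposite strand closer than 25560 bp.

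NDUFA6, an accessory subunit of complex I, had fold enrichments of 5.20 and 8.62 with DMSO, compared with 25.4 and 27.8 after palbociclib. Again the groups did not overlap, and the ratio of means was 3.85. The peaks of palbociclib replicates 1 and 2 were 1124 and 1063 bp wide. In DMSO the peaks were narrower and did not overlap each other, at chr22:42090384-42090554 in replicate 1 and chr22:42090686-42090982 in replicate 2, so the presence of Rb in both untreated libraries rests on different positions of the promoter. Over these 3 genes the median log2 fold enrichment was 2.38 and 3.11 with DMSO and 4.67 and 4.80 with palbociclib, a difference of 1.99 (3.97-fold; exact permutation test, two-sided, p = 0.333, the smallest possible). The 569 other genes called in all 4 lists differed by 1.91 on the same scale. Their gene-wise ratios ran from 1.48 to 7.56 with a median of 3.65, so a rise with palbociclib was not particular to these 3 genes.

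Peaks in both palbociclib libraries and 1 DMSO library were found at ATP5MC1 and NDUFV2 (2.25%, beside 3.59% of other genes). ATP5MC1, one of the genes for the c ring of ATP synthase, had 5.20 in DMSO replicate 2 and 16.2 and 17.0 with palbociclib. NDUFV2, an iron–sulphur subunit next to the NADH site, had 4.91 in DMSO replicate 2 and 6.47 and 6.24 with palbociclib, so its DMSO value lay close to the treated ones. A gene without a peak has no deposited value, and a fold change against it was not computed.

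The called share of each complex had an interval that holds the 34.2% of other genes. Of the 7 core subunits of complex I, which carry the flavin and the iron–sulphur clusters, 5 were called in both palbociclib libraries (71.4%, interval 29.0 to 96.3%), whereas 6 of 29 accessory subunits were (20.7%, interval 7.99 to 39.7%). The 2 intervals overlap, and the difference was not tested. Besides NDUFS8 and NDUFV2 the called core genes were NDUFS3 (6.72 and 7.77), NDUFV1 (4.84 and 5.78) and NDUFS1 (4.06 and 5.44). NDUFV1 also had a peak in the IgG2a library (4.99). The summits of NDUFS3 and NDUFS1 lay nearer to a TSS of an opposite-strand gene, at 25 and 71 bp. Neither was seen at the called accessory genes. NDUFS7, another iron–sulphur subunit, was called in palbociclib replicate 2 only, at 3.51. Of the 29 accessory genes, 16 (55.2%) had no peak in any parental list, beside 57.1% of other genes. Among the accessory subunits, after NDUFA6 the highest mean values were at NDUFA11 in the membrane arm (9.13 and 8.22) and NDUFC1 (8.87 and 6.66), followed by NDUFB11 (6.40 and 8.32), NDUFV3 (4.77 and 7.84) and NDUFA12 (6.01 and 5.6).

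In complex II, succinate dehydrogenase, 1 of 4 genes was called (25%, interval 0.631 to 80.6%). SDHA, the flavoprotein, had fold enrichments of 7.75 and 7.80, whereas SDHB, SDHC and SDHD had no peak in any parental list. In complex III, the cytochrome bc1 complex, 4 of 9 were called (44.4%, interval 13.7 to 78.8%). The core protein genes UQCRC1 (17.3 and 11.5) and UQCRC2 (9.63 and 9.71) stood highest, followed by UQCRH, the hinge protein (7.62 and 8.68), and UQCR10 (4.38 and 6.16). UQCRC1 had the highest fold enrichment of any gained respiratory chain gene. UQCRFS1, which encodes the Rieske iron–sulphur protein, was called in palbociclib replicate 2 only, at 3.51.

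In complex IV, cytochrome c oxidase, 4 of 19 genes were called (21.1%, interval 6.05 to 45.6%), and 13 (68.4%, interval 43.4 to 87.4%) had no peak in any parental list, beside 34.2% and 57.1% of other genes. The called genes were COX6A1 (6.43 and 10.5), COX5A (8.76 and 7.84), COX6B2 (9.02 and 5.85) and COX8A (7.48 and 6.44). The values of these 4 genes overlapped, and none differed from the next beyond the spread of its replicates. COX6B2 is the testis isoform of its subunit and was the only called gene among 9 tissue-restricted paralogues and retrocopies. Its summits lay 441 and 406 bp downstream of the nearest TSS, further than those of the other called genes of complex IV. The other 8, UQCRHL, COX4I2, COX6A2, COX7A1, COX7B2, COX8C, NDUFA4L2 and ATP5MGL, had no peak. Without these paralogues and the readthrough genes, 29 of 78 genes (37.2%) were called in both palbociclib libraries.

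In complex V 10 of 19 genes were called (52.6%, interval 28.9 to 75.6%), the largest number of any complex other than complex I, where 11 of 36 were. The interval contains the 34.2% of other genes. No parental peak was found at 4 of the 19 genes (21.1%, interval 6.05 to 45.6%), beside 57.1% of other genes. Within the catalytic head, ATP5F1A (α), ATP5F1C (γ, 6.11 and 5.07) and ATP5F1E (ε, 6.05 and 6.16) were called in both libraries, ATP5F1D (δ) in replicate 1 only at 4.78, and ATP5F1B (β) in no list. All the genes of the c ring, which encode the same mature protein, were called: ATP5MC1, ATP5MC2 (10.9 and 7.84) and ATP5MC3 (4.48 and 6.37). Of the stalk subunits, ATP5PF was called (9.65 and 8.81), ATP5PD was called in replicate 1 only (3.33), and ATP5PB and ATP5PO in no list. The smaller membrane subunits ATP5MK (4.97 and 7.80), ATP5ME (5.46 and 6.62) and ATP5MJ (3.74 and 4.16) completed the called genes, and ATP5IF1, the inhibitor of the enzyme, was called in replicate 2 only at 4.53.

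**Figure D2:**
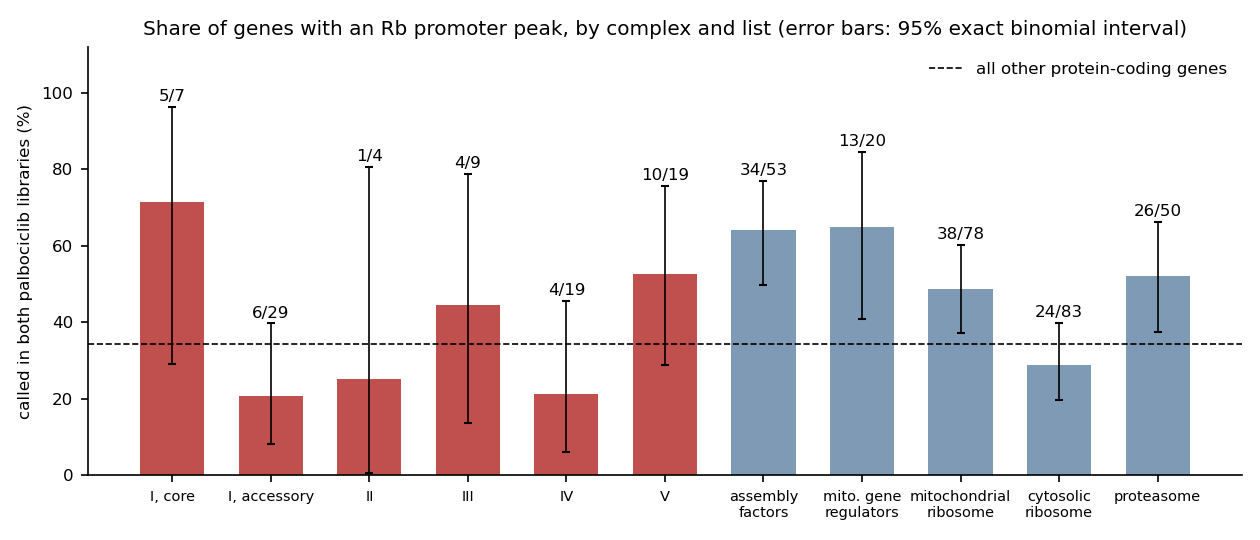
Share of genes called in both palbociclib libraries (%, y axis) for the complexes (red) and for related and compared lists (blue), with 95% exact binomial intervals and called over measured genes above each bar. The dashed line marks the 34.2% of other protein-coding genes; complex I core (71.4%) and complex V (52.6%) stand above it and complex I accessory (20.7%) and complex IV (21.1%) below it, and all of these intervals cross the line.

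The genes without a parental Rb peak are, in complex I, NDUFA1, NDUFA3, NDUFA5, NDUFA7, NDUFA8, NDUFA10, NDUFA13, NDUFB3, NDUFB4, NDUFB7, NDUFB8, NDUFB9, NDUFB10, NDUFC2, NDUFS4 and NDUFS5. In complexes II and III they are SDHB, SDHC, SDHD, UQCRB, UQCRQ and UQCRHL. In complex IV they are COX4I1, COX4I2, COX6A2, COX6B1, COX6C, COX7A1, COX7A2, COX7A2L, COX7B, COX7B2, COX8C, NDUFA4 and NDUFA4L2. In complex V they are ATP5F1B, ATP5PB, ATP5PO and ATP5MGL, and the readthrough gene NDUFC2-KCTD14 completes the list.

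Rb peaks at respiratory chain promoters were of moderate height. Over the 30 genes called in both palbociclib libraries the mean fold enrichment had a median of 7.40 (3.95 to 43.5), compared with 8.36 over the 6800 other called genes. A mean of at least 10 was reached by 5 of the 30 (16.7%), namely ATP5F1A, NDUFA6, NDUFS8, ATP5MC1 and UQCRC1, and by 38.4% of the other called genes. In each library on its own the medians over these genes were 7.1 and 7.8, compared with 8.48 and 8.32 for the others. Fragment pileups at the summits ran from 7 to 99, with medians of 14 and 15.5, over backgrounds of 0.561 to 5.61 fragments. Replicate 2 divided by replicate 1 ranged from 0.648 to 1.65 with a median of 1.01, and 17 genes were higher in replicate 2 and 13 in replicate 1. Across the 30 genes, which share their 2 libraries and are not independent replicates, the values of the replicates had a Spearman rho of 0.76, compared with 0.834 across the other called genes.

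**Figure D3:**
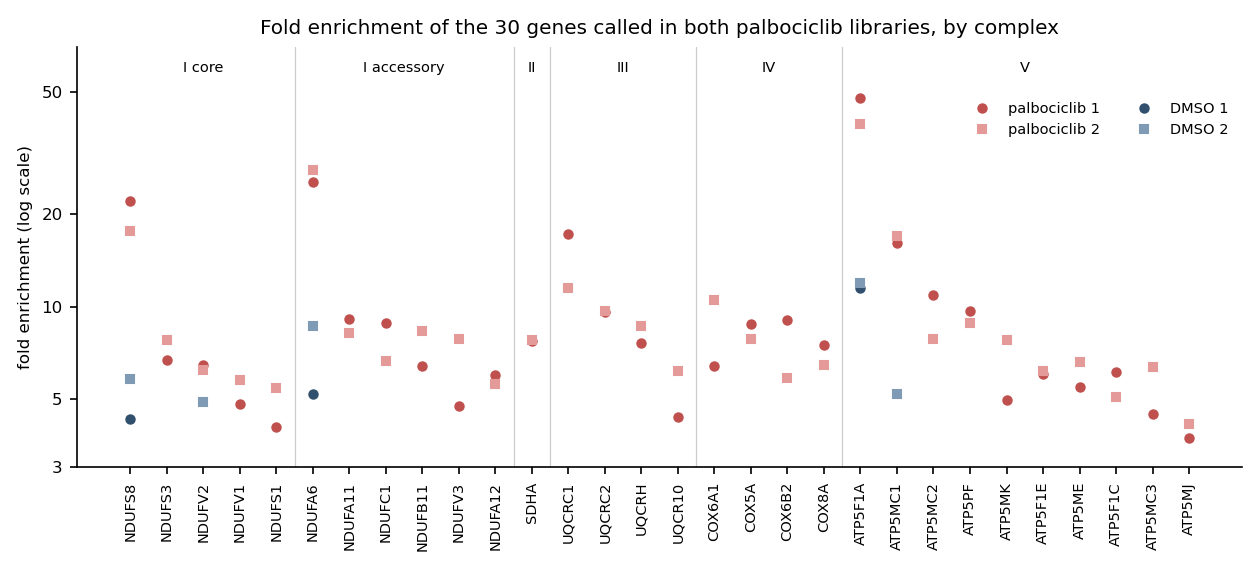
Fold enrichment (log scale, y axis) of the strongest promoter peak of each of the 30 respiratory chain genes called in both palbociclib libraries (x axis, by complex), 1 point per parental library. Most genes lie between 4 and 10 with palbociclib and have no DMSO point; ATP5F1A, NDUFA6 and NDUFS8 have a point in all 4 libraries, with both palbociclib values above both DMSO values.

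Summits sat close to the start of the genes. Over the 30 genes the median distance from the nearest TSS was 107.5 bp, compared with 113 bp for the other called genes, and 13 of 30 (43.3%) lay within 100 bp, compared with 45.2%. In 16 genes the summit lay upstream and in 14 downstream of the TSS, compared with 59.1% upstream and 40.3% downstream for the other called genes. The median signed position was 13 bp upstream, and it moved to 6.5 bp downstream without palbociclib replicate 1 and to 18 bp downstream without palbociclib replicate 2. In the library with the higher −log10 q, only ATP5ME had its summit beyond 500 bp. It lay at 602 bp and was 94 bp from a TSS of the divergent gene MYL5. At NDUFC1 the summit used, of palbociclib replicate 1, lay 342 bp downstream of its nearest TSS. That of replicate 2 lay 523 bp upstream of its nearest TSS.

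Many of these promoters are shared. An opposite-strand protein-coding gene starts within 1000 bp upstream at 31 of the 89 genes (34.8%), compared with 14.4% of other genes. At 13 of the 30 called genes (43.3%) the peak was also the promoter peak of an opposite-strand gene, compared with 27.5% of the other called genes, so the assignment to 1 gene of the pair is ambiguous there. At 7 of the 30 (23.3%, compared with 13.6%) the summit was nearer to a TSS of the opposite-strand gene than to that of the respiratory chain gene. These were ATP5F1A with HAUS1, NDUFS1 with EEF1B2, NDUFS3 with KBTBD4, SDHA with CCDC127, UQCR10 with ZMAT5, ATP5ME with MYL5 and ATP5MK with PDCD11. ATP5PF shared its peak with GABPA, which encodes the DNA-binding subunit of GABP, itself a known regulator of respiratory chain promoters.

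The promoter class of the respiratory chain genes differed from that of other genes, and within a class their called share was lower or equal. CpG-rich promoters, with at least 50% GC and an observed over expected CpG ratio of at least 0.6 within 500 bp of the canonical TSS, were found at 75 of the 89 genes (84.3%) and at 64.8% of other genes. Among CpG-rich promoters 29 of 75 respiratory chain genes were called in both palbociclib libraries (38.7%, interval 27.6 to 50.6%), compared with 48.8% of other genes. Among CpG-poor promoters 1 of 14 was called (7.14%), compared with 7.35%. Where the promoter was divergent, 13 of 31 were called (41.9%, interval 24.5 to 60.9%), compared with 63.1% of other genes with divergent promoters. Where it was not divergent, 17 of 58 were called (29.3%), and the share of other genes was also 29.3%. The interval at divergent promoters ends below the share of the other divergent genes. No test of the difference was made.

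**Figure D4:**
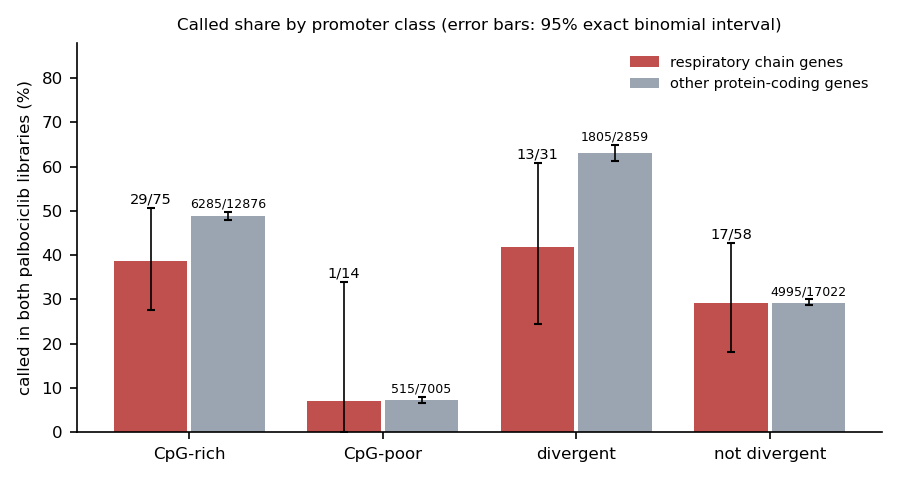
Share of genes called in both palbociclib libraries (%, y axis) by promoter class (x axis), for respiratory chain genes and other protein-coding genes, with 95% exact binomial intervals and called over measured genes above each bar. Respiratory chain genes stand below other genes at CpG-rich (38.7% and 48.8%) and divergent promoters (41.9% and 63.1%) and level with them at the rest.

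Sequence matches show which known elements of respiratory chain promoters lay within 100 bp of the Rb summits. A match can lie outside the peak itself, as the ETS match of NDUFS1 does in both palbociclib libraries. The letters searched, on both strands, were CGCATGCG or CGCACGCG for NRF1, CCGGAAGT for ETS, AAGATGGC for YY1, TGACGTCA for CRE, TCAAGGTCA for ERR, CCAAT for NFY and GGGCGG for SP/KLF. For the cell cycle elements they were TTTCCCGC, TTTCGCGC, TTTGCCGC or TTTGGCGC for E2F and TTTGAA for CHR. No motif contains another whole, although matches may overlap in part. The NRF1 letters were found within 100 bp of the summit at 5 of the 30 called genes, and SP/KLF and NFY letters at more of them. The sequences are given because NRF1 had the largest number of matches among the NRF1, ETS, YY1, CRE and ERR letters.

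NDUFA6, NRF1, chr22:42090778-42090807, minus strand: cgcccgcggtcCGCACGCGctgcttgcaaa
NDUFA11, NRF1, chr19:5903869-5903898, minus strand: ccggtccccggCGCGTGCGcgcgatccatg
NDUFA12, NRF1, chr12:95003765-95003852, minus strand: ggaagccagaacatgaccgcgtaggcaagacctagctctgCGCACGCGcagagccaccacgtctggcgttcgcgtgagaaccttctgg
ATP5F1C, NRF1, chr10:7788145-7788174, plus strand: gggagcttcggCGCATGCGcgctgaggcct
ATP5MC2, NRF1, chr12:53675970-53676052, minus strand: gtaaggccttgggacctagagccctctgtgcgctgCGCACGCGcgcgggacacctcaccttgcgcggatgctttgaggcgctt

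The remaining matches of this kind, and the single E2F match, are given to show where each element lay; sequences are cut to 30 bases where the match lies in or beside an annotated exon.

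COX8A, ETS, chr11:63974561-63974619, plus strand: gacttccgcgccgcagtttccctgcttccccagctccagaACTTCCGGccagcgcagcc
ATP5MK, ETS, chr10:103396617-103396646, minus strand: gtgcaattcttCCGGAAGTgtgggcgggct
NDUFS1, ETS, chr2:206159584-206159613, minus strand: aggctggggccACTTCCGGcggaactgcgg
UQCRC1, YY1, chr3:48609605-48609634, minus strand: actgcagctggAAGATGGCggcgtccgtgg
ATP5MC1, CRE, chr17:48892690-48892764, plus strand: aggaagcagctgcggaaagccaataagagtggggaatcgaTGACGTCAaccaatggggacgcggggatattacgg
ATP5MC3, ERR, chr2:175181756-175181844, minus strand: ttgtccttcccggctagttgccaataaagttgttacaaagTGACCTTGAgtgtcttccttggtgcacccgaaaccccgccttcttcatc
NDUFB11, E2F, chrX:47144532-47144561, minus strand: cgtccgctgtgGCGGGAAAgcggcccccag

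In ATP5MC2 a YY1 match was also present near the summit. The 5 NRF1 matches (16.7%, interval 5.64 to 34.7%) stand beside 6.21% of the 6800 other called genes. ETS letters were found at 10.0%, beside 3.37% of others, and YY1 letters at 6.67%, beside 2.41%. E2F letters were found at 1 of 30 (3.33%, interval 0.0844 to 17.2%), beside 6.40% of others, and CHR letters at 0 of 30 (upper limit of the interval 11.6%), beside 3.51%. CRE letters were found at 3.33%, beside 1.24%, and ERR letters at 3.33%, beside 0% of the others. The GC box of SP/KLF was found at 53.3%, beside 69.2%, and the CCAAT box of NFY at 9 of 30, beside 26.8%. The intervals of the 30 genes are wide, and no test of these differences was made.

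The same letters were counted in every promoter from 250 bp before to 50 bp after the canonical TSS, called or not. NRF1 letters were present in 20.2% of the 89 respiratory chain promoters and 6.46% of all others, ETS letters in 14.6% and 6.12%, and YY1 letters in 16.9% and 4.00%. E2F letters were present in 7.87% and 4.36%, and CHR letters in 2.25% and 11.5%. Of the 7 respiratory chain genes with E2F letters in this window 2 were called in both palbociclib libraries (28.6%, interval 3.67 to 71%), compared with 59.6% of other genes with them. Of the 18 with NRF1 letters 8 were called (44.4%, interval 21.5 to 69.2%), compared with 57.3% of others. With the CCAAT box 15 of 29 were called (51.7%, interval 32.5 to 70.6%), and without it 15 of 60 (25%, interval 14.7 to 37.9%). These intervals overlap, and the difference was not tested. Of other genes with and without the box, 38.9% and 31.6% were called. YY1 letters were present in 3 of the 30 called genes (10.0%, interval 2.11 to 26.5%) and in 12 of the 59 that were not called in both libraries (20.3%, interval 11.0 to 32.8%), and the intervals overlap. Among other genes they were present in 5.79% of the called and 3.07% of the rest.

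**Figure D5:**
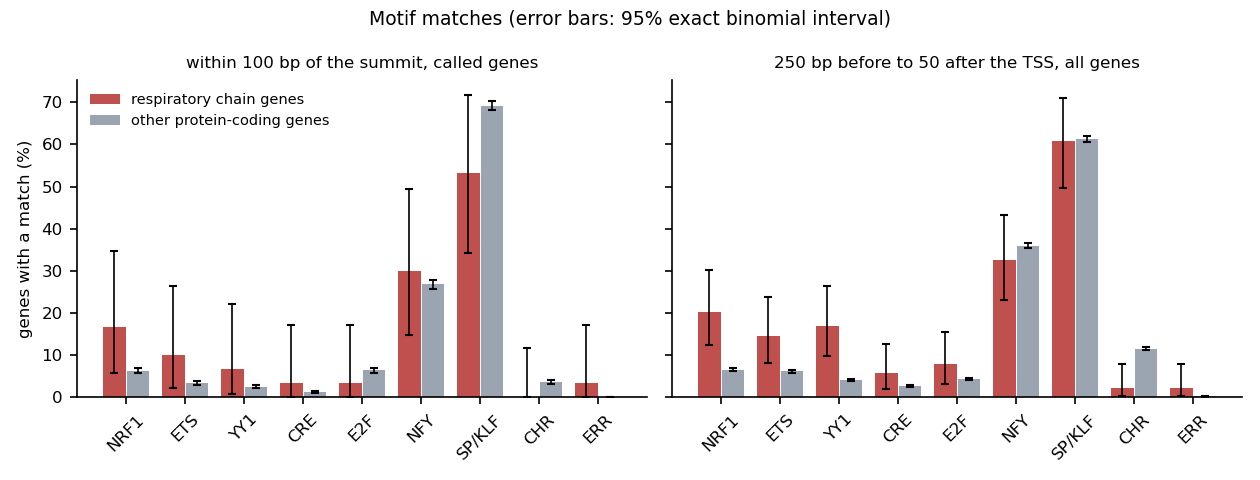
Share of genes with a match to each motif (%, y axis), within 100 bp of the Rb summit in called genes (left) and in the promoters of all genes (right), for respiratory chain genes and other protein-coding genes, with 95% exact binomial intervals. NRF1, ETS and YY1 matches are found in 20.2%, 14.6% and 16.9% of respiratory chain promoters and in 6.46%, 6.12% and 4.00% of other promoters, and at summits the intervals of the 30 genes are wide.

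Larger shares were called among genes that serve the respiratory chain without being subunits, a difference that was not tested. Promoter class was not matched in this comparison. Many of the assembly factors have a divergent promoter, a class with a higher called share among other genes, and its part in the difference was not tested. Of 53 assembly factors 34 (64.2%, interval 49.8 to 76.9%) were called in both palbociclib libraries, and of 20 regulators of mitochondrial gene expression 13 (65%, interval 40.8 to 84.6%), beside the 34.2% of other genes, among which both lists are counted. By complex, 8 of 15 assembly factors of complex I were called, 3 of 4 of complex II, 3 of 6 of complex III, 16 of 24 of complex IV and 4 of 4 of complex V. The assembly factors NDUFAF6 (23.3 and 14.1 with DMSO, 51.8 and 57.0 with palbociclib) and BCS1L (7.48 and 6.38, then 22.3 and 21.1) were called in all 4 parental lists, and the promoter of NDUFAF6 is shared with CCNE2, which encodes cyclin E2. Among the regulators, TFB1M, a factor of mitochondrial ribosomal RNA (5.24 and 8.83, then 26.4 and 34.8), and SP1 (10.5 and 10.6, then 59.1 and 54.9) were called in all 4. In each of these 4 genes both palbociclib values lay above both DMSO values. The 569 other genes called in all 4 lists, these 4 among them, had gene-wise ratios of palbociclib to DMSO from 1.48 to 7.56.

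NRF1 (6.60 and 9.30), GABPB1 (4.72 and 6.89), YY1 (11.5 and 9.42), ESRRA (20.2 and 15.9) and TFAM (6.66 and 7.62) were gained with palbociclib. They encode factors that act on nuclear or mitochondrial respiratory genes and were named after their values were seen. From the same list GABPA, PPARGC1B, TFB2M, TWNK and POLG were gained too. Among other genes 27.8% were gained. PPARGC1A, the coactivator of mitochondrial biogenesis, POLRMT, the mitochondrial RNA polymerase, MTERF1 and POLG2 had no parental peak. CREB1 (5.93), PPRC1 (5.32) and TEFM (3.56) were called in palbociclib replicate 1 only. Of 4 genes that the symbol rule leaves out, 3 were gained, beside 27.8% of other genes, among which these 4 are counted. They encode cytochrome c, the enzyme that attaches its haem, and subunits of complexes I and III. A list of 4 genes is too short to compare shares. The gained genes were CYCS, cytochrome c itself (11.4 and 10.4), CYC1 of complex III (6.46 and 8.10), and NDUFAB1, the acyl carrier subunit of complex I (5.30 and 5.76). HCCS, which attaches haem to cytochrome c, had no parental peak.

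Among gene families of similar size, 38 of 78 mitochondrial ribosomal protein genes (48.7%), 24 of 83 cytosolic ribosomal protein genes (28.9%) and 26 of 50 proteasome subunit genes (52.0%) were called in both palbociclib libraries. The respiratory chain, with 33.7%, lay between the families of the ribosomes and close to the 34.2% of other genes. These shares were not compared by a test. Median fold enrichments of the called genes were 8.0, 6.43 and 9.76 in that order, compared with 7.40 in the respiratory chain. The distance of the summit from the nearest TSS had medians of 152.5, 261.5 and 87.5 bp, compared with 107.5 bp.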

How the data were processed

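Rb CUT&RUN was performed in parental and RB1 KO ZR-75-1 cells, with the 7 libraries grouped by their titles. According to the methods and the submitters' processing notes, the authors used BBDuk for trimming and Bowtie2 2.3.4.1 for alignment to hg38. Mitochondrial and blacklisted reads were dropped and duplicates retained. Each library was called separately in MACS2 2.2.7.1 from read pairs, against IgG, at q 0.05. The control used to call the IgG2a list is not given in the sources used here. The deposited values of each peak are a fold enrichment (a ratio of pileup to background), a −log10 p and a −log10 q, and a score scaled from the last. Per the methods, replicates were separate cultures with their own profiling reactions.

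Promoter peaks overlapped the window around any TSS of a protein-coding transcript (GENCODE 44, GRCh38) by at least 1 bp. Transcripts of any type were used for the 344 genes without such a transcript. The strongest peak by fold enrichment represented each gene. Summits and motifs came from the palbociclib library with the higher −log10 q. Pileup and background were recovered from the deposited fold enrichment and p, and missed −log10 p by at most 0.000352 over the genes described. Groups of 2 libraries were compared with exact permutation tests, two-sided; groups of 1 library were not tested. Named genes were those called in both DMSO libraries, the 3 with the highest mean palbociclib value in each complex, those without a parental peak, those in control lists and the tissue-restricted paralogues. Other called genes are given to complete each complex, and list genes were named after their values were seen. The members, gene lists and motifs were chosen with earlier results of these data known. Scripts were tested on simulated data. Python 3.11.15, pandas 2.3.3, scipy 1.17.1 and pysam 0.24.0 were used. The values of 1 gene counted in the totals are not reported here.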

Additional observations from a re-analysis of the deposited data

Results flagged for a closer look

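The IgG2a library, which enters no comparison between treatments, had a promoter peak at NDUFV1 with a fold enrichment of 4.99, the only respiratory chain gene in that list. It was noted because it is a signal in a control library. The peak spanned chr11:67606993-67607162 and held 17 fragments over a background of 2.61. It overlapped the Rb peaks of both palbociclib libraries, whose fold enrichments at this promoter were 4.84 and 5.78 over backgrounds of 5.61 and 5.58 fragments, the highest of the called respiratory chain genes. These Rb peaks held 31 and 37 fragments and had −log10 q of 10.4 and 15.1 in calls made against IgG. The IgG2a fold enrichment of 4.99 lay between the Rb values. Neither RB1 KO list had a peak there, but these lists held only 4 and 5 peaks on the chromosomes of the genes scored. The absence of a call in them therefore says little about any single promoter. NDUFV1 lies between 67 and 71 Mb on chromosome 11, where palbociclib peaks had median backgrounds of 4.36 and 4.69. The part of background in the Rb peaks at NDUFV1 was not tested. Without NDUFV1, 29 of the respiratory chain genes remained called in both palbociclib libraries.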

How the results depend on the processing

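With each parental list limited to its 816 best peaks, which brings the totals level by construction, the difference in the number of genes between palbociclib and DMSO was 0, the share called in both palbociclib libraries was 4.49%, the gained share 0% and the median fold enrichment 23.2. Requiring a fold enrichment or a −log10 q of at least 5 gave a median fold enrichment of 8.15 under either choice, and differences of 25 and 24.5 genes. Set against CpG-rich other genes only, the 89 respiratory chain genes of every promoter class lay 15.1 percentage points lower (−15.1), and against divergent other genes only −29.4, with a ratio of median fold enrichments of 0.801. The difference of −0.496 points from all other genes changed sign with the window, the TSS set and the members counted, within its interval. The window, the summit rule, the TSS set and the removal of readthrough genes or paralogues otherwise moved neither the difference of 34 to 35.5 genes nor the shares beyond their intervals.

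Leaving out 1 parental library in turn gave differences of 34.5 to 36.5 genes, log2 differences in fold enrichment of 1.75 to 2.35, shares of 33.7 to 44.9% with palbociclib, 3.37 to 5.62% with DMSO and 28.1 to 39.3% gained, −0.496 to 6.74 percentage points, medians of 6.40 to 7.40 and ratios of 0.827 to 0.885. Shares rise there because a call then needs 1 library fewer. The replicate numbers mark no shared batch in the labels. With the replicate number as a block the differences stayed 35.5 genes and 1.99, with p = 0.5 (exact permutation within pairs), the smallest that design gives. The median summit position was 43.5 bp upstream (−43.5) with the window that ended 100 bp after the TSS and −115.5 with the 816 best peaks. Motif shares moved with the distance searched: within 50 bp of the summit they were 3.33% for NRF1, 13.3% for NFY and 0% for CRE, E2F and ERR, within 250 bp 30% for NRF1, 56.7% for NFY and 80% for SP/KLF, and NFY stood at 50% in the promoter window. Depth limits weak sites: pileups of called genes start at 7 fragments, so the absence of a call does not show the absence of Rb.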
